A study of Mus musculus with 14 samples.

Results

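The genes described here encode 10 proteins of the smooth muscle contractile apparatus: the actins Acta2 and Actg2, the myosin chains Myh11 and Myl9, the tropomyosins Tpm1 and Tpm2, the thin filament proteins Cnn1, Tagln and Lmod1, and the intermediate filament protein Des. They were taken by name from the 21789 probe sets that carry exactly 1 gene symbol, among 23410 tested. Each of the 10 had 1 such probe set, and all 10 entered the tests. Hepatic stellate cells (HSCs) of BalbC mice (Balb/cByJ in the methods) were plated in medium with serum, and unattached cells were washed away after 2 h. Cells then given 2.5 mM valproic acid (VPA), an inhibitor of histone deacetylases, form the groups VPA4h and VPA64h, named for the hours until collection. Ctrl4h, Ctrl16h and Ctrl64h are cells without VPA collected at 4, 16 and 64 h. Each group has 3 arrays apart from Ctrl16h, which has 2, and no VPA cells were measured at 16 h. Every group therefore consists of plated primary cells in serum, and none is freshly isolated tissue. According to the methods, the samples of a group are independent biological replicates; how many mice went into each was not given in the sources used here. Expression was read on Affymetrix mouse gene arrays as log2 values normalised between arrays (RMA), on which 1 unit is a doubling.

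Smooth muscle shortens when myosin heads pull on actin filaments. The trigger is the phosphorylation of the regulatory light chain of myosin, tropomyosin and calponin lie along the actin filament, and desmin filaments link the dense bodies to which the actin is anchored. HSCs are the pericytes of the liver sinusoids. They are known to gain contractile proteins when they turn into myofibroblasts in fibrosis or on plastic, and α-smooth muscle actin, the product of Acta2, is the usual marker of that change. Many smooth muscle genes carry CArG boxes, the sites bound by serum response factor with its coactivators of the myocardin family.

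The promoters of Acta2 and Myl9, the 2 genes called higher by 16 h in control cells, are shown with that of Cnn1, which was called higher only after 16 h. Each sequence is the 250 bases before the transcription start listed by RefSeq (GRCm38.p6), 5′ to 3′ on the gene's strand. Capitals mark a CArG box (2 C, 6 bases of A or T, 2 G, on either strand) or a site that departs from it at 1 of the 6 core bases.
Acta2 (chr19:34255374-34255623, minus strand): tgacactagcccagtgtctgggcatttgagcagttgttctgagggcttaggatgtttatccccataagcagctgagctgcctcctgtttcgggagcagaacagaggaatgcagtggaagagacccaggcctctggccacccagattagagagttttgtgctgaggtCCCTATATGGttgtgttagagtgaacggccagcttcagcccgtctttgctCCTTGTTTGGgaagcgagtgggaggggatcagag
Myl9 (chr2:156775214-156775463, plus strand): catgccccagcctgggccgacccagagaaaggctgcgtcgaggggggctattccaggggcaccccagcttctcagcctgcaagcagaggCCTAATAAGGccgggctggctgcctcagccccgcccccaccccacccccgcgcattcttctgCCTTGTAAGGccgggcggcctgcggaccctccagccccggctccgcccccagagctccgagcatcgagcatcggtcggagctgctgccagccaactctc
Cnn1 (chr9:22099003-22099252, plus strand): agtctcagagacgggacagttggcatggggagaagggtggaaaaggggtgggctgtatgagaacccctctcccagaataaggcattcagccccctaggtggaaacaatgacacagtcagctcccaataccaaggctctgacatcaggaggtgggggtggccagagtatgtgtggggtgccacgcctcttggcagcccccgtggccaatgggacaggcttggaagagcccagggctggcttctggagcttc
The start listed for each of these 3 genes lies inside the annotated gene. Myl9 held a CArG box 161 to 152 bases before the start and a site with 1 core base off at 99 to 90 bases. Acta2 held a pair of sites with 1 core base off, at 84 to 75 and 34 to 25 bases. Cnn1 held neither in this window. The table matched 7 of the 10 genes, the others being Tpm1, Tpm2, Lmod1 and Des; Actg2, Myh11 and Tagln were not matched. Of these 7, 1 held a CArG box and 2 a site with 1 core base off, against 1.62% and 8.33% of 27025 genes. Tpm1, Tpm2, Lmod1 and Des held neither, although Tpm2 and Des were also higher at 16 h, by less than 2-fold. A link between these sites and the time of the rise was not tested. CATTCC, the core of the TEAD site, was present in Acta2, Tpm1 and Lmod1, 3 of 7, against 14.4% of genes. The E-box CANNTG was present in 6 of 7, against 69.3% of genes. These are matches of letters and do not show binding.

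**Figure D1:**
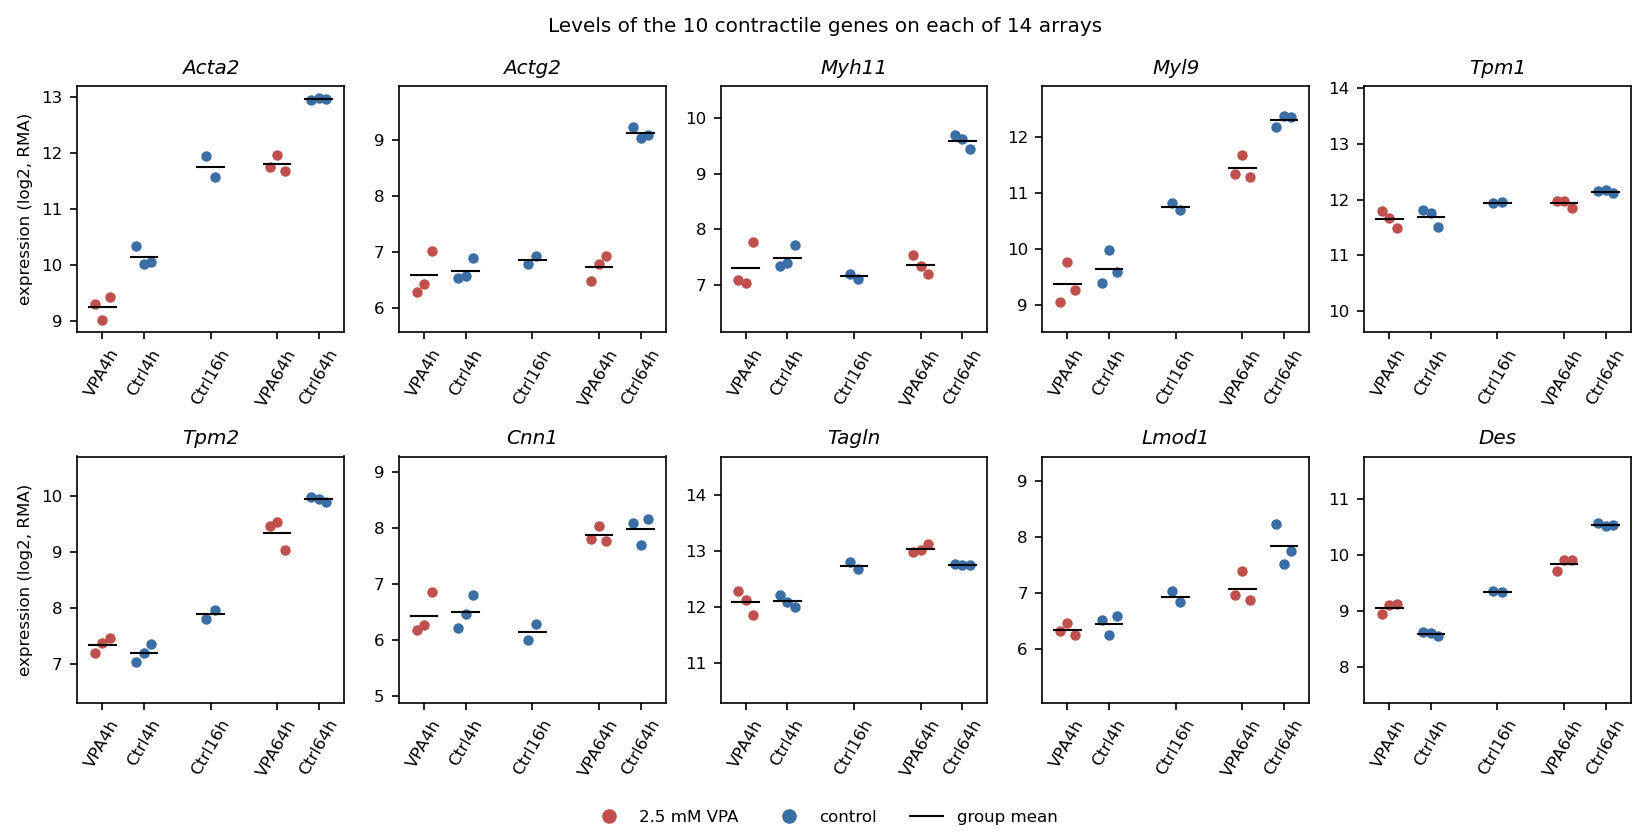
Log2 expression (vertical axis, RMA values) of each of the 10 genes on the 14 arrays, by group; red points are arrays with 2.5 mM VPA, blue points control arrays and black lines group means. Each panel spans a similar range of log2 units at its own height, and Actg2 and Myh11 stand apart from the other groups at Ctrl64h alone, with all arrays at 9.04 or above.

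Array medians lay between 6.34 and 6.41, arrays of 1 group correlated at 0.9932 to 0.9955 and no array stood apart. Among the defining genes of stellate cells, 10 of 11 were measured, with array means of 8.85 to 9.06 in VPA4h, 8.17 to 8.28 in VPA64h, 8.71 to 8.81 in Ctrl4h, 8.03 to 8.23 in Ctrl16h and 7.82 to 8.10 in Ctrl64h. Between Ctrl64h and Ctrl4h 5 of these 10 genes were called lower, against 3.71% of all tested probe sets, and 1 higher, against 6.68%. Sinusoidal endothelial markers averaged 6.08 to 6.46 in VPA4h, 5.75 in each VPA64h array, 6.23 to 6.58 in Ctrl4h, 5.99 to 6.08 in Ctrl16h and 5.88 to 6.24 in Ctrl64h, so that VPA64h lay below Ctrl64h. Lymphocyte markers averaged 5.28 to 5.52 in VPA4h, 5.04 to 5.05 in VPA64h, 5.42 to 5.56 in Ctrl4h, 5.44 to 5.50 in Ctrl16h and 4.99 to 5.28 in Ctrl64h, below Ctrl4h. Hepatocyte markers averaged 5.75 to 6.44 in VPA4h, 5.37 to 6.04 in VPA64h, 5.87 to 6.44 in Ctrl4h, 5.73 to 6.20 in Ctrl16h and 5.43 to 6.06 in Ctrl64h, and Kupffer cell markers 5.25 to 5.77 over all groups. Portal fibroblast, mesothelial and cholangiocyte markers averaged 6.67 to 6.94 in VPA64h, 6.51 to 6.70 in Ctrl64h and 6.30 to 6.72 in the other groups. The part of these markers in the results was not tested. These arrays carry no detection call, so a low value cannot be read as absence, and levels are not compared between genes.

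In control culture 8 of the 10 genes were called higher at 64 h than at 4 h, by 2.61-fold to 7.11-fold, and none was called lower. A gene is called where limma, a linear model fitted to all probe sets, gave a p under 0.05 after Benjamini-Hochberg adjustment and the difference was 2-fold or more, a rule that 6.68% of all tested probe sets met in the higher and 3.71% in the lower direction. Acta2, Tpm2, Myl9, Actg2, Myh11, Des, Cnn1 and Lmod1 were called. Tpm1 and Tagln, whose probe sets already read 11.51 or more at 4 h, were higher by 1.36-fold and 1.58-fold. All 10 had an adjusted p under 0.05, against 25.0% of probe sets in that direction, and in all 10 the 3 arrays of Ctrl64h lay above those of Ctrl4h, against 27.2%. The median log2 change was 2.03, against -0.09 over all tested probe sets. With the arrays centred on 1 Gapdh probe set Cnn1 (0.93) and Lmod1 (0.83) were no longer called. Tagln then stood at 0.10 (adjusted p 0.445) and Tpm1 turned to -0.11 (adjusted p 0.430). In bulk cultures a larger share of contractile cells and more mRNA per cell cannot be told apart.

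Acta2 (GRCm38.p6, chr19:34240336-34255585) encodes the actin isoform of vascular smooth muscle. With VPA it read 9.31, 9.02 and 9.43 at 4 h and 11.75, 11.98 and 11.68 at 64 h. Control cells had 10.35, 10.02 and 10.05 at 4 h, 11.95 and 11.57 at 16 h and 12.95, 12.99 and 12.97 at 64 h. The group means ran VPA4h, Ctrl4h, Ctrl16h, VPA64h, Ctrl64h from low to high, and of these neighbours only Ctrl16h and VPA64h overlapped. The mean was 12.97 ± 0.02 (SD, n = 3) in Ctrl64h and 10.14 ± 0.18 (SD, n = 3) in Ctrl4h, a log2 change of 2.83 (standard error, SE, 0.13, adjusted p 8e-11).

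Actg2 (chr6:83512909-83536251) encodes the actin isoform of visceral smooth muscle. Its values with VPA were 6.29, 6.43 and 7.01 at 4 h and 6.47, 6.78 and 6.93 at 64 h. In control cells they were 6.54, 6.56 and 6.89 at 4 h, 6.78 and 6.92 at 16 h and 9.24, 9.04 and 9.09 at 64 h. Ctrl64h lay more than 2 log2 units above every array of the other groups, which all overlapped with one another. Ctrl64h averaged 9.12 ± 0.11 (SD, n = 3) and Ctrl4h 6.66 ± 0.20 (SD, n = 3), a log2 change of 2.46 (SE 0.16, adjusted p 4.37e-09). Actin genes are close in sequence, so that probe sets may share signal. In Ctrl16h against Ctrl4h the log2 change was 1.62 for Acta2 and 0.19 for Actg2. For the skeletal, cardiac and cytoplasmic actins Acta1, Actc1 and Actb it was 0.00, -0.04 and -0.01. These actins had 0.44, 0.29 and 0.04 in Ctrl64h against Ctrl4h, with adjusted p of 0.00056, 0.0326 and 0.627. In VPA64h against Ctrl64h they had -0.27, -0.30 and -0.08, with adjusted p of 0.0387, 0.060 and 0.477. None of them was called, and sharing of signal was not tested.

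Myh11 (chr16:14194527-14292188), the heavy chain of smooth muscle myosin, followed the course of Actg2. It read 7.10, 7.04 and 7.78 in VPA4h and 7.54, 7.35 and 7.21 in VPA64h. Control values were 7.34, 7.40 and 7.72 at 4 h, 7.21 and 7.11 at 16 h and 9.69, 9.62 and 9.44 at 64 h. Again only Ctrl64h was high, and the other groups overlapped with their neighbours in rank. The mean in Ctrl64h was 9.58 ± 0.13 (SD, n = 3), against 7.49 ± 0.21 (SD, n = 3) in Ctrl4h, a log2 change of 2.10 (SE 0.16, adjusted p 2.63e-08).

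Myl9 (chr2:156775408-156781657), a regulatory light chain that is phosphorylated to start contraction, was higher at each later time. Values with VPA were 9.06, 9.78 and 9.28 at 4 h and 11.35, 11.69 and 11.30 at 64 h. Without VPA they were 9.39, 9.98 and 9.59 at 4 h, 10.82 and 10.71 at 16 h and 12.18, 12.38 and 12.36 at 64 h. Only the 2 groups at 4 h overlapped. Ctrl64h averaged 12.31 ± 0.11 (SD, n = 3) and Ctrl4h 9.65 ± 0.30 (SD, n = 3), a log2 change of 2.66 (SE 0.17, adjusted p 3.18e-09).

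Tropomyosin 2, encoded by Tpm2 (chr4:43513726-43523583), and tropomyosin 1, encoded by Tpm1 (chr9:67022590-67049672), are the coiled-coil proteins that run along actin. Tpm2 read 7.19, 7.38 and 7.47 in VPA4h and 9.47, 9.54 and 9.04 in VPA64h. In control cells it was 7.03, 7.19 and 7.35 at 4 h, 7.81 and 7.97 at 16 h and 9.99, 9.95 and 9.89 at 64 h. Only the groups at 4 h overlapped. The mean was 9.95 ± 0.05 (SD, n = 3) in Ctrl64h, against 7.19 ± 0.16 (SD, n = 3) in Ctrl4h, a log2 change of 2.76 (SE 0.12, adjusted p 7.43e-11). Tpm1 moved little in any group. It read 11.80, 11.67 and 11.49 in VPA4h, 11.97, 11.98 and 11.84 in VPA64h, 11.81, 11.76 and 11.51 in Ctrl4h, 11.93 and 11.95 in Ctrl16h and 12.15, 12.17 and 12.11 in Ctrl64h. Its log2 change in control culture was 0.45 (SE 0.10, adjusted p 0.00108). Tpm1 is spliced into muscle and non-muscle forms, which 1 probe set for the whole gene does not separate.

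Calponin 1, encoded by Cnn1 (chr9:22099221-22109221), binds actin and slows the myosin ATPase. Its levels were 6.17, 6.27 and 6.86 in VPA4h and 7.81, 8.03 and 7.77 in VPA64h. Control cells had 6.22, 6.46 and 6.80 at 4 h, 5.99 and 6.29 at 16 h and 8.09, 7.69 and 8.17 at 64 h. The arrays thus fell into a low range at 4 h and 16 h and a high range at 64 h, and within each range the groups overlapped. The log2 change was 1.49 (SE 0.18, adjusted p 3.94e-06) in Ctrl64h against Ctrl4h.

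Transgelin (SM22α), encoded by Tagln (chr9:45929628-45936058), is an actin-bundling protein of the calponin family. It was the only one of the 10 whose highest group was VPA64h, with 12.97, 13.01 and 13.12. VPA4h had 12.28, 12.12 and 11.85, and control cells 12.20, 12.08 and 12.00 at 4 h, 12.79 and 12.67 at 16 h and 12.77, 12.74 and 12.75 at 64 h. Ctrl16h and Ctrl64h overlapped, as did the groups at 4 h. The log2 change in Ctrl64h against Ctrl4h was 0.66 (SE 0.10, adjusted p 4.3e-05).

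Leiomodin 1, which nucleates actin filaments in smooth muscle, is encoded by Lmod1 (chr1:135324813-135368065). It read 6.31, 6.46 and 6.24 in VPA4h and 6.95, 7.38 and 6.87 in VPA64h. Control values were 6.51, 6.24 and 6.58 at 4 h, 7.03 and 6.83 at 16 h and 8.23, 7.51 and 7.75 at 64 h. VPA64h overlapped with Ctrl16h and VPA4h with Ctrl4h, while Ctrl64h lay above all other groups. Its spread at 64 h was wide, with 7.83 ± 0.37 (SD, n = 3) in Ctrl64h, against 6.44 ± 0.18 (SD, n = 3) in Ctrl4h, a log2 change of 1.39 (SE 0.16, adjusted p 2.9e-06).

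Desmin, encoded by Des (chr1:75360292-75368579), is a classical marker of rodent HSCs as well as of muscle. It read 8.95, 9.11 and 9.12 in VPA4h and 9.72, 9.91 and 9.91 in VPA64h. In control cells it was 8.62, 8.60 and 8.56 at 4 h, 9.36 and 9.34 at 16 h and 10.57, 10.53 and 10.54 at 64 h. No 2 of the 5 groups overlapped. The mean was 10.55 ± 0.02 (SD, n = 3) in Ctrl64h and 8.59 ± 0.03 (SD, n = 3) in Ctrl4h, a log2 change of 1.96 (SE 0.08, adjusted p 3.44e-11).

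The control rise was spread unequally over the intervals before and after 16 h. In Ctrl16h against Ctrl4h only Acta2 and Myl9 were called higher, against 0.705% of all probe sets, and none was called lower, against 1.21%. In Ctrl64h against Ctrl16h 7 genes were called higher, against 4.52% of probe sets, and none lower, against 2.08%. Median log2 changes were 0.56 in the early and 1.38 in the late interval, against -0.01 and -0.07 over all tested probe sets. Both intervals use the arrays of Ctrl16h, so that they are not independent.

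Acta2 was the gene with the larger early change, 1.62 on the log2 scale (SE 0.14, adjusted p 1.36e-06) at 16 h and a further 1.21 (SE 0.14, adjusted p 6.46e-06) by 64 h, so that 57.2% of its log2 rise had taken place by 16 h. For Myl9 the changes were 1.11 (adjusted p 0.000524) and 1.54 (adjusted p 9.71e-06). Its early call was lost without Ctrl4h replicate 1, at 0.98, and with Gapdh centring, at 0.69. Tpm2, Tagln and Des were higher at 16 h by 0.70, 0.64 and 0.76, with adjusted p of 0.00167, 0.000704 and 2e-05, less than the 2-fold limit. With Gapdh centring these changes were 0.28, 0.22 and 0.34, with adjusted p of 0.101, 0.163 and 0.0153. Tpm2 and Des were then called in the late interval, at 2.06 and 1.20. Tagln was flat there, at 0.02 (95% interval -0.22 to 0.26). As deposited, it had 96.6% of its rise by 16 h, a rise that Gapdh centring reduced to 0.10 (adjusted p 0.445).

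Actg2, Myh11 and Cnn1 formed the late group. Their log2 changes at 16 h were 0.19 (95% interval -0.20 to 0.57), -0.33 (-0.71 to 0.06) and -0.35 (-0.79 to 0.08), none with an adjusted p under 0.05, whereas with Gapdh centring Myh11 and Cnn1 stood at -0.75 and -0.78, with adjusted p of 0.00234 and 0.00200. In the late interval they rose by 2.27, 2.42 and 1.85 on the log2 scale, with adjusted p of 1.11e-07, 6e-08 and 3.19e-06. Lmod1 lay at 0.49 (adjusted p 0.0785) in the early and 0.90 (adjusted p 0.000975) in the late interval. Without Ctrl64h replicate 2, its lowest array at 64 h, the late change was 1.06 and was called. Tpm1 changed by 0.25 and 0.20, neither with an adjusted p under 0.05.

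**Figure D2:**
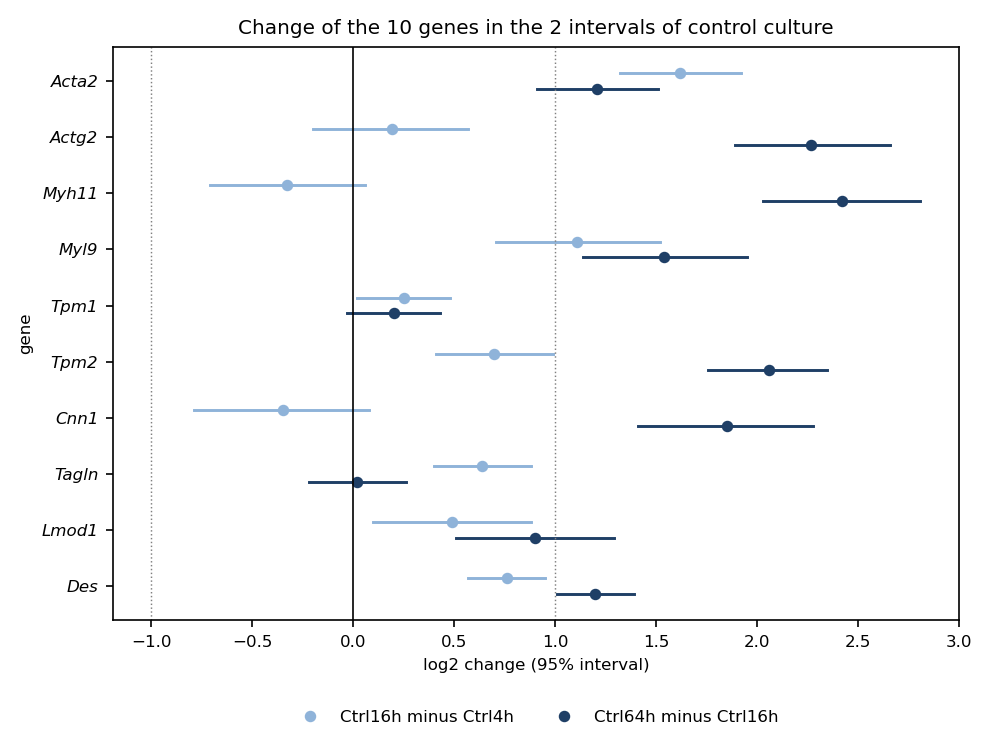
Log2 change of each gene (horizontal axis, with 95% intervals) in Ctrl16h minus Ctrl4h (light blue) and Ctrl64h minus Ctrl16h (dark blue); dotted lines mark a 2-fold change. Actg2, Myh11 and Cnn1 lie at 0.19, -0.33 and -0.35 in the early interval and at 2.27, 2.42 and 1.85 in the late one.

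After 4 h of VPA none of the 10 genes was called in either direction by limma, against 0.867% of probe sets called higher and 0.555% called lower. The genes with an unadjusted p under 0.05 were Acta2 and Des, 2 of 10 against 29.6% of probe sets, and they differed in opposite directions. Acta2 was 1.85-fold lower, with 9.25 ± 0.21 (SD, n = 3) in VPA4h and 10.14 ± 0.18 (SD, n = 3) in Ctrl4h, a log2 change of -0.89 (SE 0.13, adjusted p 8.05e-05). Des was 1.38-fold higher, with 9.06 ± 0.10 (SD, n = 3) in VPA4h and 8.59 ± 0.03 (SD, n = 3) in Ctrl4h, a log2 change of 0.47 (SE 0.08, adjusted p 0.000402). Neither overlapped between the groups, as was the case for 16.8% of all probe sets in the lower and 16.2% in the higher direction. With Gapdh centring Acta2 stood at -1.22 and was called lower, and Des stood at 0.14 (adjusted p 0.237). Actg2 and Myh11 stood at -0.42 and -0.51, with adjusted p of 0.0230 and 0.0120. Myl9, Lmod1, Cnn1, Tpm1 and Tagln stood at -0.61, -0.44, -0.39, -0.38 and -0.34, each with an adjusted p under 0.05. Tpm2 stood at -0.18 (adjusted p 0.243). This centring put the median over all tested probe sets at -0.36. With housekeeping centring Acta2 and Des stood at -0.72 and 0.64. As deposited, the other 8 genes differed by -0.28 to 0.16, with adjusted p of 0.326 or more. The median over the 10 was -0.07, against -0.03 over all tested probe sets.

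After 64 h of VPA Actg2, Myh11 and Acta2 were called lower than in control cells, 3 of 10 against 1.14% of probe sets. Actg2 was 5.27-fold lower, with 6.72 ± 0.23 (SD, n = 3) in VPA64h and 9.12 ± 0.11 (SD, n = 3) in Ctrl64h (log2 change -2.40, SE 0.16, adjusted p 6.68e-08). Myh11 was 4.65-fold lower, with 7.37 ± 0.16 (SD, n = 3) in VPA64h and 9.58 ± 0.13 (SD, n = 3) in Ctrl64h (log2 change -2.22, SE 0.16, adjusted p 1.55e-07). Acta2 was 2.24-fold lower, with 11.80 ± 0.16 (SD, n = 3) in VPA64h and 12.97 ± 0.02 (SD, n = 3) in Ctrl64h (log2 change -1.17, SE 0.13, adjusted p 7.96e-06).

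Myl9, Lmod1, Des and Tpm2 were lower with VPA at 64 h by less than 2-fold. Their log2 changes were -0.86, -0.76, -0.70 and -0.59, with adjusted p of 0.00156, 0.00288, 1.2e-05 and 0.00217. Altogether 7 genes were lower at an adjusted p under 0.05, against 11.2% of probe sets, and the median over the 10 was -0.73, against 0.00 over all. Tpm1 differed by -0.21 (SE 0.10, adjusted p 0.140). For Cnn1 no difference was detectable, at -0.11 with a 95% interval of -0.50 to 0.27. Tagln had the opposite sign, 0.28 (95% interval 0.07 to 0.50, adjusted p 0.0527), and its 3 arrays of VPA64h lay above the 3 of Ctrl64h. With arrays paired by replicate number its adjusted p was 0.0313, at the same fold. With Gapdh centring the change of Tagln was 0.16 (adjusted p 0.371), and with housekeeping centring 0.22 (adjusted p 0.204). Of the relatives of Cnn1 and Tagln, Cnn2, Cnn3 and Tagln2 were lower with VPA by 0.51, 0.54 and 0.45 on the log2 scale, with adjusted p of 0.000605, 0.000198 and 0.000544. Tagln3 had 0.25 (adjusted p 0.0713), and none of these relatives was called.

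Some markers of vascular smooth muscle cells, Kcnmb1 and Casq2, moved beside Actg2 and Myh11. Of 6 such genes other than the 10, all measured, Kcnmb1, the β1 subunit of a potassium channel, was called lower at -1.97 (SE 0.16, adjusted p 4.95e-07) and Casq2, a calsequestrin, at -2.13 (SE 0.12, adjusted p 1.16e-08) in VPA64h against Ctrl64h. Both had been called higher in Ctrl64h against Ctrl4h, at 1.85 and 1.96, and in VPA64h against Ctrl4h they stood at -0.12 and -0.18. Jph2 differed by -0.75 with VPA, and Pln, Rasl12 and Npnt by 0.02, -0.23 and -0.08, none called. In Ctrl64h against Ctrl4h Jph2 stood at 0.55, Pln at -0.40 (adjusted p 0.0227), Rasl12 at -0.02 and Npnt at -0.08, again none called. The mean of the 6 genes on an array was 5.36 to 5.42 in VPA64h and 6.17 to 6.34 in Ctrl64h, beside 5.44 to 5.58 in VPA4h, 5.47 to 5.72 in Ctrl4h and 5.55 to 5.57 in Ctrl16h. Their part in the result was not tested.

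**Figure D3:**
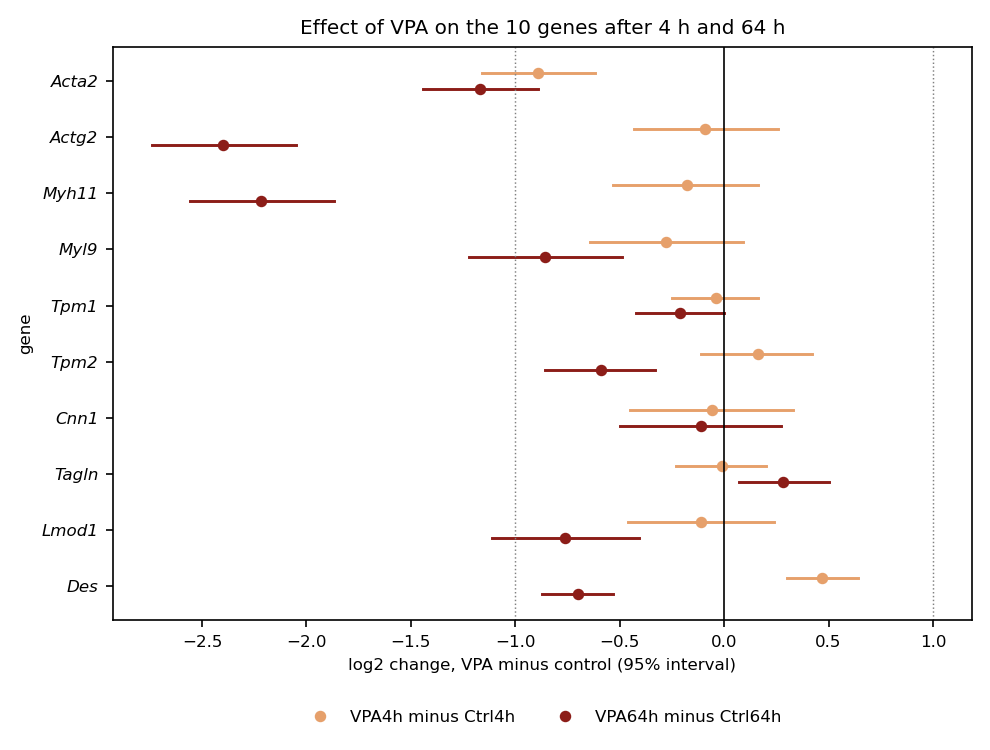
Log2 difference of each gene with VPA minus control (horizontal axis, with 95% intervals) after 4 h (orange) and 64 h (dark red); dotted lines mark a 2-fold change. At 64 h Actg2 and Myh11 lie at -2.40 and -2.22, while Cnn1 and Tagln lie at -0.11 and 0.28.

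With VPA present, 4 of the 10 genes were still called higher at 64 h than at 4 h, against 5.26% of probe sets. Acta2, Myl9, Tpm2 and Cnn1 rose by 2.55, 2.08, 2.01 and 1.44 on the log2 scale. Tagln was higher by 0.96 (SE 0.10, adjusted p 1.14e-06), just under 2-fold, and was called without VPA4h replicate 1, at 1.05. It stood at 0.61 with Gapdh and 0.52 with housekeeping centring. Des, Lmod1 and Tpm1 were higher by 0.79, 0.73 and 0.28, with adjusted p of 7.96e-07, 0.00158 and 0.0251. Tpm1 turned to -0.07 with Gapdh and -0.15 with housekeeping centring. Lmod1 stood at 0.39 (adjusted p 0.0394) with Gapdh and 0.30 (adjusted p 0.102) with housekeeping centring. Actg2 and Myh11 showed no detectable change, at 0.15 (95% interval -0.20 to 0.49) and 0.06 (-0.29 to 0.41), though with housekeeping centring Myh11 stood at -0.37 (adjusted p 0.0442).

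The change with VPA can be set against the control change on the log2 scale, each from its own 4 h value. For Cnn1 it came to 96.5% and for Acta2 to 90.2% of the control change. It was 78.2% for Myl9, 72.8% for Tpm2, 53.0% for Lmod1 and 40.2% for Des. For Actg2 it was 5.95% and for Myh11 2.88%. Tagln had 145% and Tpm1 62.9%, both of a control change under 2-fold. Measured from the 4 h control instead, VPA64h had reached 92.3% of the control change for Cnn1, 78.4% for Tpm2, 67.8% for Myl9, 64.1% for Des, 58.8% for Acta2 and 45.1% for Lmod1. It was 2.46% for Actg2 and -5.80% for Myh11, and 143% for Tagln and 53.0% for Tpm1. Acta2 thus lay above Tpm2, Myl9 and Des from its own start and below them from the 4 h control. The VPA effect on Acta2 was -1.17 at 64 h, beside -0.89 at 4 h, and that on Actg2 -2.40 at 64 h, beside -0.09 at 4 h.

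**Figure D4:**
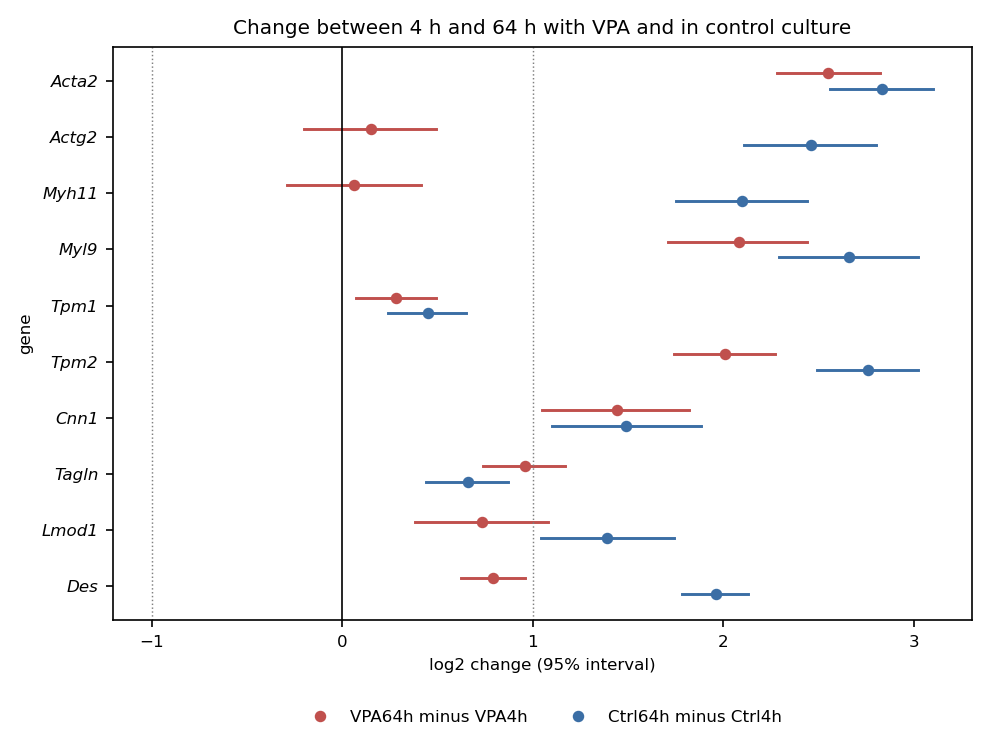
Log2 change of each gene between 4 h and 64 h (horizontal axis, with 95% intervals) with VPA (red, VPA64h minus VPA4h) and in control culture (blue, Ctrl64h minus Ctrl4h); dotted lines mark a 2-fold change. Acta2 has 2.55 with VPA and 2.83 in control culture, and Actg2 has 0.15 with VPA and 2.46 in control culture.

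Whether the VPA effect itself differed between the times was tested as the effect at 64 h minus that at 4 h. Actg2 (-2.31, SE 0.23, adjusted p 7.97e-06), Myh11 (-2.04, SE 0.23, adjusted p 2.56e-05) and Des (-1.17, SE 0.11, adjusted p 6.55e-06) were called lower, 3 of 10 against 1.70% of probe sets. For Des the effect was 0.47 at 4 h and -0.70 at 64 h. With Gapdh centring these were 0.14 and -0.82, with adjusted p of 0.237 and 9.33e-06, and their difference was -0.96 and not called. Tpm2 differed by -0.75 (SE 0.17, adjusted p 0.00743), less than 2-fold. Acta2 had -0.28 (95% interval -0.66 to 0.11, adjusted p 0.369), so that no difference between its effects at 4 h and 64 h was detected. Myl9, Lmod1, Tpm1 and Cnn1 had -0.58, -0.65, -0.17 and -0.05 and Tagln 0.30, none with an adjusted p under 0.05. With arrays paired by replicate number within each time Myl9 had an adjusted p of 0.0106, at less than 2-fold. Housekeeping centring put Myl9 at -0.81 (adjusted p 0.0108) and Lmod1 at -0.89 (adjusted p 0.0128). Gapdh centring put Tagln at 0.50 (adjusted p 0.0475).

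Set against the 4 h control, VPA64h cells had 5 genes called higher, against 6.54% of probe sets. They were Tpm2 (2.16), Myl9 (1.80), Acta2 (1.66), Cnn1 (1.38) and Des (1.25). Tagln, Lmod1 and Tpm1 were higher by 0.94, 0.62 and 0.24 with an adjusted p under 0.05. With Gapdh centring Acta2 (0.98), Cnn1 (0.70) and Des (0.57) were no longer called, and Lmod1 (-0.06) and Tpm1 (-0.44) changed sign. Tagln then stood at 0.26 (adjusted p 0.0538). Actg2 differed from the 4 h control by 0.06 (95% interval -0.28 to 0.41) and Myh11 by -0.12 (-0.47 to 0.22). The 10 genes thus ranged, after 64 h with VPA, between 1.09-fold lower (Myh11) and 4.47-fold higher (Tpm2) than in the 4 h control, and with Gapdh centring Actg2 and Myh11 stood at -0.62 and -0.80, with adjusted p of 0.000868 and 0.000148. With housekeeping centring Myh11 stood at -0.38 (adjusted p 0.0432). This comparison shares its arrays with those above.

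Of 118 further genes of the contractile pathway, 111 were measured. Among other actins and myosins 4 of 16 were called higher in Ctrl64h against Ctrl4h, against 6.68% of probe sets, and none lower, against 3.71%. Their median log2 change was 0.33. The 4 genes were the non-muscle heavy chain Myh10 (2.06), the light chains Myl12b (2.20) and Myl6 (1.18), and Myo18a (1.06). Myl12b is close in sequence to Myl12a, so that its probe set may share signal. None of the 16 was called with VPA at 64 h by limma, where 8 had an unadjusted p under 0.05, against 34.2% of all probe sets. After 4 h of VPA Myh10 and Myl12b were called higher, at 1.12 and 1.15, while Acta2 was lower by 0.89. At 64 h they differed between VPA and control by 0.00 and 0.22.

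Among the regulators of contraction 4 of 21 were called higher in Ctrl64h against Ctrl4h, against 6.68% of probe sets, and 1 lower, against 3.71%. Their median was -0.07. Higher were the myosin light chain kinase Mylk (1.12), the phosphatase inhibitor Ppp1r14a (1.64), the phosphatase subunit Ppp1r12b (1.33) and the cGMP-dependent kinase Prkg1 (1.26), and smoothelin (Smtn), a marker of contractile smooth muscle, was lower (-1.04). With VPA at 64 h Mylk, Ppp1r14a, Ppp1r12b and Prkg1 differed by -0.91, -0.77, -0.58 and -0.93, each with an adjusted p under 0.05 and none called. The difference of the VPA effects, 64 h less 4 h, was called lower for Mylk (-1.29) and Ppp1r14a (-1.58), against 1.70% of probe sets. Both genes had been higher with VPA at 4 h, by 0.39 and 0.81, with adjusted p of 0.0068 and 0.000346. Smtn stood at -0.01 with VPA at 64 h.

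Among 41 actin-binding and dense-body proteins 8 were called higher in Ctrl64h against Ctrl4h, against 6.68% of probe sets, and 1 lower, against 3.71%. Their median was 0.28. The largest changes were those of the actin-severing protein Dstn (1.97), the focal adhesion protein Lpp (1.95), the LIM protein Pdlim2 (1.64) and the actin-associated protein Synpo (1.56), and Tmod1, which caps the pointed end of actin filaments, was lower (-1.25). With VPA at 64 h Tmod1 (1.34) and the profilin Pfn2 (1.08) were called higher, against 234 of all 23410 tested probe sets. Pdlim2 (-1.25) was called lower, against 1.14% of probe sets. At an adjusted p under 0.05 and any fold 18 were lower, against 11.2% of probe sets. In the higher direction there were 6, for which the share of all probe sets is not given here. Lpp differed with VPA by 0.05 and stood 1.72 higher at 16 h than at 4 h.

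None of 10 other intermediate filament genes was called by limma in Ctrl64h against Ctrl4h, where 6 had an unadjusted p under 0.05, against 61.5% of all probe sets, and none in VPA64h against Ctrl64h, where 2 had, against 34.2%. Nestin (Nes), synemin (Synm) and vimentin (Vim) had log2 changes of -0.92, -0.73 and -0.26 in control culture, beside 1.96 for Des. Of 23 genes of the serum response factor pathway the coactivator Mrtfa was called higher at 1.75 (SE 0.12, adjusted p 4.29e-09) and Srf itself lower, at the 2-fold limit (adjusted p 3e-08). Over all tested probe sets 6.68% were called higher and 3.71% lower in Ctrl64h against Ctrl4h. Myocd, the coactivator of smooth and cardiac muscle, had -0.27 (adjusted p 0.0515). With VPA at 64 h Mrtfa, Srf and Myocd differed by -0.62, -0.04 and -0.14. None of the 23 was called there by limma, and 12 had an unadjusted p under 0.05, against 34.2% of all probe sets.

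**Figure D5:**
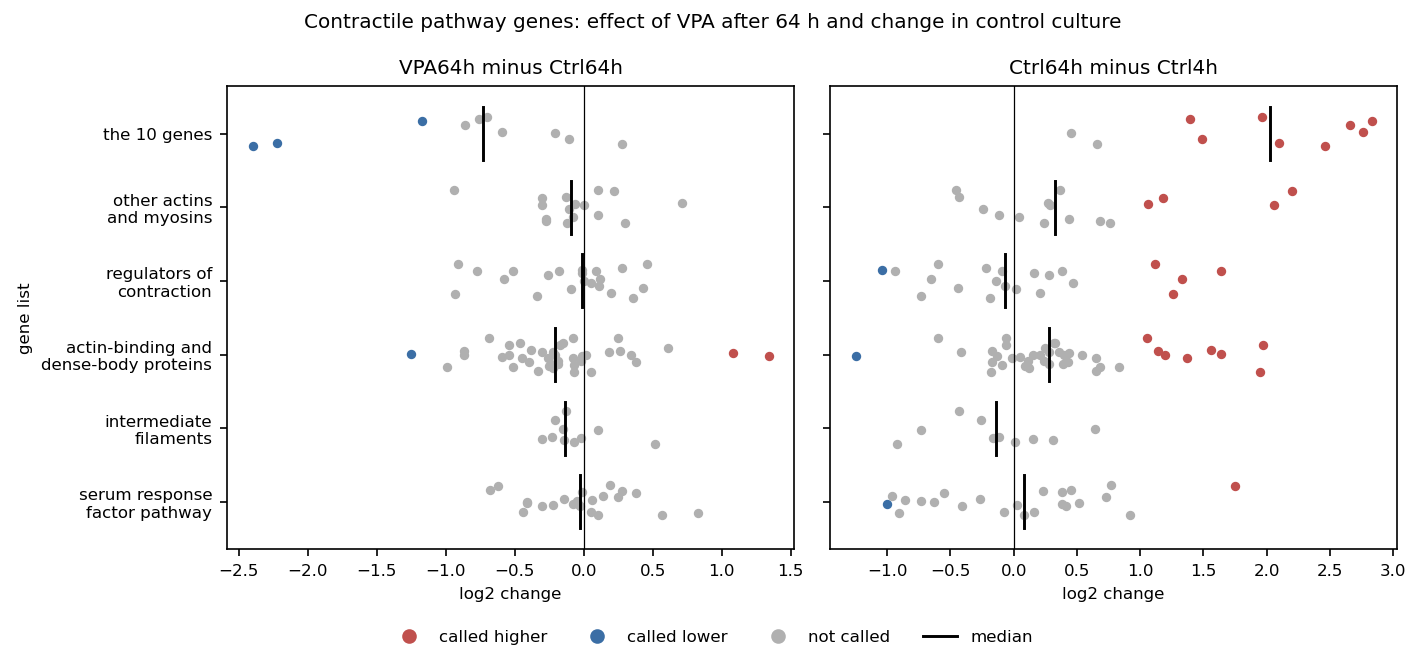
Log2 change (horizontal axes) of single genes of each list, for VPA64h minus Ctrl64h (left) and Ctrl64h minus Ctrl4h (right); red points were called higher, blue points lower, grey points not called, and black bars are list medians. The median of the 10 genes is -0.73 with VPA and 2.03 in control culture, beside 0.00 and -0.09 over all tested probe sets.

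Across the 14 arrays the 10 genes were unequally alike. Actg2 and Myh11 had the highest correlation of any pair (Pearson r 0.97), followed by Tpm2 with Des and with Myl9 (0.96 each). The lowest were Myh11 with Tagln (0.21) and Actg2 with Tagln (0.31). Among 6412 other genes with an SD of at least 0.3, the closest to Actg2 were Hspb6 (0.982), Pappa and Parpbp (0.977 each), and to Myh11 Parpbp (0.978), Casq2 (0.973) and Kif2c (0.972). Acta2 was closest to the collagen gene Col5a2 (0.987), Myl9 to Akr1a1 (0.993), Tpm2 to Wls (0.994), Cnn1 to Ogn (0.975), Lmod1 to Fam189b (0.967), Tagln to Tpgs2 (0.976), Tpm1 to Sh3bp5 (0.939) and Des to Plp2 (0.994). The arrays fall into 5 groups, so these values describe the order of the groups more than 14 separate points.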

How the data were processed

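Total RNA from 14 HSC cultures was hybridised to Affymetrix Mouse Gene 1.0 ST arrays, 1 array per culture. The authors deposited log2 expression values made with RMA, that is background correction, quantile normalisation between arrays and summarisation of probes, so that every change is relative to the rest of the array. The paper and the submitters' processing notes name different software for this step (the notes name Affymetrix Expression Console), and its settings were not given in the sources used here. No further normalisation was applied. Of 35557 probe sets, the 23410 carrying 1 or more gene symbols were tested. Precision is limited by the number of arrays.

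The 5 groups were fitted together with limma 3.58.1 in R 4.3.3 (eBayes, 9 residual and 6.52 prior degrees of freedom), and 8 contrasts were tested two-sided with Benjamini-Hochberg adjustment over all tested probe sets. Called means a change of 2-fold or more with an adjusted p under 0.05. The fit was tested on simulated data. The members and gene lists were chosen with earlier results of these data known. All 10 genes are named, and from each list up to 4 called genes with the largest change, any gene on which a count of 5 or fewer rests, and genes set beside a member. The last were chosen after their values were seen. Likeness was taken as Pearson r over 14 arrays. Promoters were taken from a RefSeq table for GRCm38.p6. Alternatives covered the scaling, the fold limit, the spread, the probe sets and arrays used, and the replicate number as a block. Same-numbered arrays are named as repeats in the labels, with no shared animal or day given. Their deviations from the group means correlated in all 3 pairs at 0.14 to 0.28 between VPA4h and Ctrl4h, 0.16 to 0.17 between VPA64h and Ctrl64h and 0.11 to 0.18 between VPA64h and Ctrl4h, so that the numbers were taken as pairs there. For no other pair of groups were all correlations over 0.1.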

Additional observations from a re-analysis of the deposited data

Results flagged for a closer look

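For 4 of the 10 genes the VPA effect differed between 4 h and 64 h by limma's test of that difference at an adjusted p under 0.05. For Actg2 the effect at 64 h minus that at 4 h was -2.31 on the log2 scale, with effects of -2.40 at 64 h and -0.09 at 4 h. For Myh11 it was -2.04, with effects of -2.22 and -0.18. For Des it was -1.17, with effects of -0.70 at 64 h and 0.47 at 4 h, and the arrays did not overlap at either time. With Gapdh centring the 4 h effect on Des was 0.14 (adjusted p 0.237), beside -0.82 at 64 h. For Tpm2 it was -0.75, with effects of -0.59 at 64 h and 0.16 at 4 h. With arrays paired by replicate number Myl9 also passed, at -0.58 (adjusted p 0.0106). Housekeeping centring also brought Myl9 (-0.81, adjusted p 0.0108) and Lmod1 (-0.89, adjusted p 0.0128) under 0.05, and Gapdh centring Tagln (0.50, adjusted p 0.0475). Groups of 2 or 3 arrays were too small for a test of single outlying samples.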

How the results depend on the processing

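With all arrays kept, 766 of 800 changes of the 10 genes kept direction and side of the threshold. The 8 no longer called, 1 newly called and 25 reversed all came from centring, so 766 says little of scaling. With 1 array left out 1099 of 1120 kept both. The 3 calls after 64 h of VPA stood throughout, and only looser fold limits added genes. Of the counts below, a share of all probe sets is given only for the 7 with no minimum fold, 11.2%. With no minimum fold, and in brackets with 1.5-fold, the genes called were 5 (5) higher for Ctrl16h against Ctrl4h, 1 lower (1) and 1 higher for VPA4h against Ctrl4h, 7 lower (7) for VPA64h against Ctrl64h, 8 (7) higher for VPA64h against VPA4h, and 8 higher with no minimum for VPA64h against Ctrl4h.

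Centring on 1 Gapdh probe set, of 25 that carry its name, shifted the median change of all probe sets by -0.56 in Ctrl64h against Ctrl4h, and centring on 17 housekeeping genes by -0.20. As all probe sets shift alike, no gene can change its side of that median. With housekeeping centring the probe sets called in Ctrl64h against Ctrl4h were 1049 higher and 1300 lower, with Gapdh 525 and 3927, against 1564 and 868 as deposited. In the same order, for VPA64h against Ctrl64h they were 194 and 314, and 163 and 360, against 234 and 268. For VPA4h against Ctrl4h they were 398 and 61, and 45 and 519, against 203 and 130. For Ctrl16h against Ctrl4h they were 130 and 328, and 39 and 842, against 165 and 283. For Ctrl64h against Ctrl16h they were 823 and 674, and 814 and 696, against 1058 and 486. For VPA64h against VPA4h they were 450 and 1859, and 548 and 1397, against 1231 and 537. For VPA64h against Ctrl4h they were 963 and 1369, and 427 and 6194, against 1530 and 686. For the difference of the effects they were 79 and 770, and 506 and 220, against 209 and 397. With Gapdh the counts of the 10 genes became 1 higher for Ctrl16h against Ctrl4h (Myl9 lost at 0.69), 1 lower for VPA4h against Ctrl4h (Acta2, -1.22) and 2 higher for VPA64h against Ctrl4h (Acta2 0.98, Cnn1 0.70 and Des 0.57 lost). Cnn1 (0.93) and Lmod1 (0.83) lost their calls in Ctrl64h against Ctrl4h, and Des its call in the difference of the VPA effects (-0.96). Housekeeping centring put Des at 1.00 in VPA64h against Ctrl4h, just short of a call. The cause was not tested.

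The reversed changes were all of genes not called. With Gapdh they were Actg2 -0.24 and Tpm1 -0.17 in Ctrl16h against Ctrl4h, Tagln -0.11 in Ctrl64h against Ctrl16h, Tpm1 -0.11 in Ctrl64h against Ctrl4h, Tpm2 -0.18 in VPA4h against Ctrl4h, Actg2 -0.20, Myh11 -0.29 and Tpm1 -0.07 in VPA64h against VPA4h, Actg2 -0.62, Tpm1 -0.44 and Lmod1 -0.06 in VPA64h against Ctrl4h, and Tpm1 0.04 and Cnn1 0.16 in the difference of the VPA effects. With housekeeping genes they were Tagln -0.11 in Ctrl64h against Ctrl16h, Actg2 0.09, Tpm1 0.13, Cnn1 0.11, Tagln 0.16 and Lmod1 0.06 in VPA4h against Ctrl4h, Actg2 -0.29, Myh11 -0.37 and Tpm1 -0.15 in VPA64h against VPA4h, and Actg2 -0.20 and Tpm1 -0.02 in VPA64h against Ctrl4h. Median centring put Tagln at 0.00 in VPA4h against Ctrl4h.

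Leaving out 1 array gave 1 to 2 genes called higher for Ctrl16h against Ctrl4h, 7 to 8 for Ctrl64h against Ctrl16h and 4 to 5 for VPA64h against VPA4h, and changed no other count. Changes that crossed 0 ranged from -0.04 to 0.08 for Tagln in Ctrl64h against Ctrl16h, from -0.30 to 0.06 for Actg2, -0.14 to 0.04 for Tpm1, -0.28 to 0.09 for Cnn1 and -0.11 to 0.10 for Tagln in VPA4h against Ctrl4h, from -0.07 to 0.30 for Myh11 in VPA64h against VPA4h, from -0.04 to 0.19 for Actg2 in VPA64h against Ctrl4h and from -0.21 to 0.16 for Cnn1 in the difference of the VPA effects.

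Replicate numbers paired the arrays of VPA and control at each time, and VPA64h with Ctrl4h, but not other groups. Blocks for these pairs were chosen after seeing the data. They called 333, 503 and 644 probe sets for VPA4h against Ctrl4h, VPA64h against Ctrl64h and the difference of the effects, against 333, 502 and 606 without, and 2216 in both for VPA64h against Ctrl4h. Apart from Tagln in VPA64h against Ctrl64h (adjusted p 0.0313) and Myl9 in the difference of the effects (0.0106), which passed the p but not the fold limit, they changed no result of the 10 genes against either limit. With the replicate block over all groups no count of the 10 genes changed. Means of probe sets were not run, as each gene has 1.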
